A study of Homo sapiens with 4 samples.

Results

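The genes described here are 39 interferon-stimulated genes, RNA sensors and their transcription factors, taken by symbol from a list and all found among the 20263 human Ensembl rows of a count table. They fall into 7 RNA sensors, 26 effectors and 6 factors of the IRF and STAT families. Their mRNA was counted in MDA-MB-231, an established human breast cancer cell line, given YW-LF, which the series title calls a ribociclib derivative, for 24 h (2 libraries) or the solvent DMSO (2 libraries). The cells grew in DMEM with serum and antibiotics. The labels give no dose, and nothing in them says that the 2 libraries of a group came from separate cultures, so every test measures only the spread between these libraries, which may be technical. Of the 39 genes, 38 passed the filter on low counts and CMPK2, a mitochondrial nucleotide kinase next to RSAD2, had 0 counts in every library.

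Interferon-stimulated genes form the antiviral programme of a cell. The helicases RIG-I and MDA5 recognise foreign or misplaced double-stranded RNA in the cytosol and signal through the adaptor MAVS and the kinase TBK1 to the factor IRF3, which switches on interferon genes and a set of antiviral genes directly, IFIT1, IFIT2 and ISG15 among them. Secreted interferon then acts through its receptors, JAK kinases and a complex that contains STAT2 and IRF9 and binds the interferon-stimulated response element (ISRE) before many of the genes described here.

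Promoter stretches of some of these genes are shown here because the members that were high in both treated libraries mostly carried the ISRE core. The sequences come from RefSeq (GRCh38.p14), each is 80 bases of the 250 before a listed start site (for RSAD2 the downstream of its listed starts), and capitals mark matches, on either strand, to the core searched here, which is GAAA, any 2 bases and GAAA. Of each stretch, 0 to 26 bases lie in exons of GENCODE 29. The starts used for ISG15 and RSAD2 lie 12359 and 11971 bases inside the widest GENCODE span of the gene. The first 6 genes stood higher with YW-LF and the last 2, without a match in the window, did not. Every gene shown follows that pattern, and none of the exceptions given in the next paragraph is among them. The window of the upstream listed start of RSAD2 held no match. IFIH1 is at chr2:162318685-162318764, minus strand. IFIT1 is at chr10:89392485-89392564, plus strand. IFIT3 is at chr10:89327840-89327919, plus strand. ISG15 is at chr1:1013355-1013434, plus strand. HERC5 is at chr4:88457010-88457089, plus strand. RSAD2 is at chr2:6877597-6877676, plus strand. TRIM21 is at chr11:4393703-4393782, minus strand. IRF1 is at chr5:132490774-132490853, minus strand.
IFIH1: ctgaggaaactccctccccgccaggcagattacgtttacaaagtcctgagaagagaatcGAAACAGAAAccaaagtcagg
IFIT1: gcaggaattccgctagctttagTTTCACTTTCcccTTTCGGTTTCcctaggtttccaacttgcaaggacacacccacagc
IFIT3: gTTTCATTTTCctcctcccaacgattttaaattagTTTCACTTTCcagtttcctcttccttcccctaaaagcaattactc
ISG15: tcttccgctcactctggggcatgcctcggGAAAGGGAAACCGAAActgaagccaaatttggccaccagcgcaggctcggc
HERC5: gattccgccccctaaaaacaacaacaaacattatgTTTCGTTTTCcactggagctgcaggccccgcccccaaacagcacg
RSAD2: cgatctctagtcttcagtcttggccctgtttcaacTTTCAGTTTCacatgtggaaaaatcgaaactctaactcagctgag
TRIM21: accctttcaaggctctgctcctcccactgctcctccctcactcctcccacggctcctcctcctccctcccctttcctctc
IRF1: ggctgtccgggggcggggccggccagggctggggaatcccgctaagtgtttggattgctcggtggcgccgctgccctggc

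The table of promoters held a window for 29 of the 39 genes, and none for DHX58, OAS2, OASL, IFIT2, IFITM2, USP18, MX2, IRF2, IRF3 or IRF7. The ISRE core was found in a window of 17 of the 29 genes (58.6%), against 3.46% of the 10998 tested genes with a window and 3.71% of all 27305 genes in the table, a gene counting once if any of its windows held a match. The genes were listed for their part in the interferon response, so this excess is built into the list and is no result about YW-LF. By class the core was in windows of 15 of 22 effectors, 2 of 4 RNA sensors and 0 of 3 factors. Of the 14 genes with a window that stood above DMSO in both YW-LF libraries, 12 held the core, and of the 14 that did not, 5 did. The exceptions were STAT2 and IFI35, high without a match, and OAS3, IFITM1, IFITM3, MX1 and IFI44L, not high in both libraries although they held one. The core asks for 2 bases between the GAAA repeats, so sites with a shorter gap were not counted. Such sites include GAAACGAAA, in windows of RIGI, OAS1 and IFI16, and GAAATGAAA, in that of IFI35. A gene without a match here may still hold a similar site, and the split depends on the core chosen. RefSeq starts can lie inside a gene's GENCODE span, so a window is not always upstream of the gene: in 8 of the 17 genes every match lay within the gene's own span. In BST2, IFIT5, IFITM1, IFITM3, ISG20 and MX1 every match touched an annotated exon. The other 11 had a match free of exon bases, which 9 of the 14 genes above DMSO in both libraries had and 2 of the 14 others, OAS3 and IFI44L. The median log2 fold change was 0.97 over the 17 genes with the core (range -1.40 to 4.16) and -0.10 over the 11 tested genes without it (range -0.97 to 1.20). A second motif, the gamma-activated site TTCNNNGAA, whose letters read the same on both strands and whose matches may overlap the ISRE core, was in windows of 8 of the 29 genes and of 7.72% of tested genes with one. It was found for 3 of the 14 genes high in both libraries and 5 of the other 14. A match is a match of letters and does not show that a factor binds. The genes were chosen with results of these data known, so neither split by motif is independent evidence, and the splits were not tested.

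**Figure D1:**
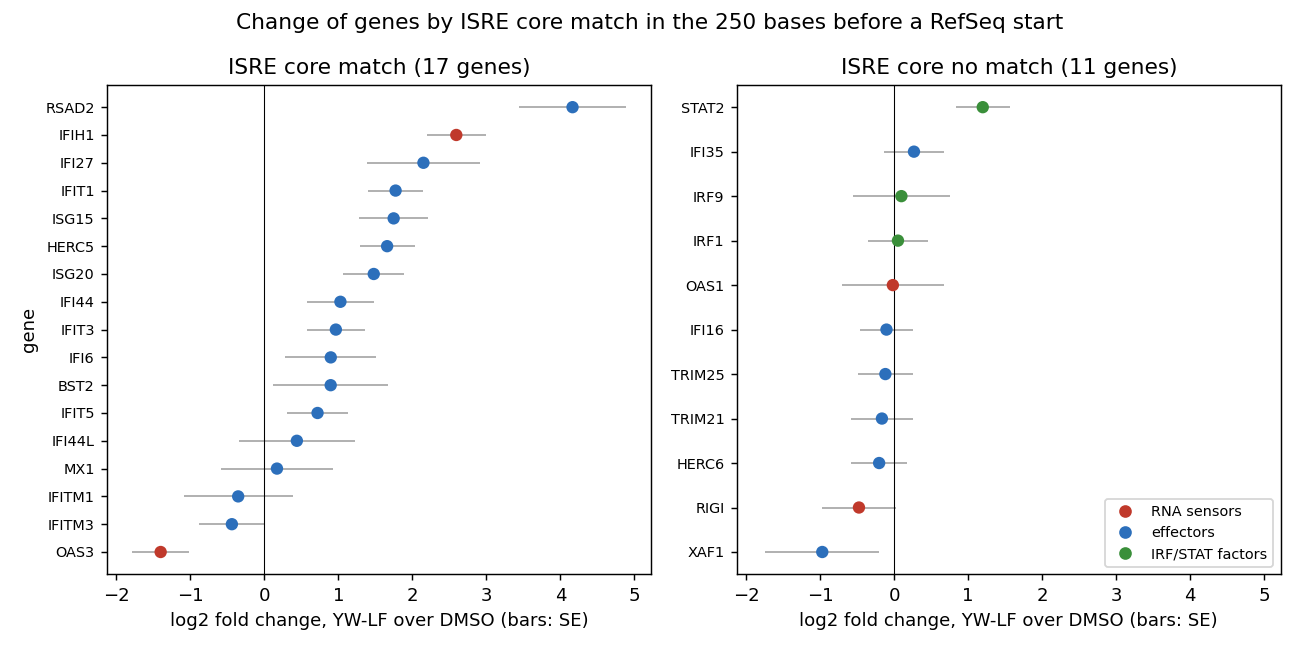
Log2 fold change of YW-LF over DMSO (x axis) for each gene with a promoter window (y axis), split by ISRE core match; bars are the standard error and colours the class. The genes with a match reach from OAS3 at -1.40 to RSAD2 at 4.16, and those without one from XAF1 at -0.97 to STAT2 at 1.20.

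The libraries held 34774542 to 40218240 counts, and values are given as CPM, counts scaled to library size by TMM. In bulk RNA, fewer cells expressing a gene and less of its mRNA per cell cannot be told apart. The YW-LF libraries resembled each other less than the DMSO libraries did (Pearson correlation of log2 CPM across 13816 genes, which are not independent replicates, 0.907 against 0.976). YW-LF replicate 2 correlated least with DMSO, at 0.865 and 0.859. YW-LF replicate 1 correlated with DMSO replicates 1 and 2 at 0.922 and 0.911, above its 0.907 with YW-LF replicate 2. Mitochondrially encoded genes took 21.7% of counts in DMSO replicate 2 and 3.14% to 8.68% in the other 3; without those genes in the fit no member changed sign and 0 passed after adjustment. The line's markers VIM, CD44, EGFR, KRT18 and AXL were between 70.3 and 4154 CPM, and ESR1, PGR and CDH1 at 1.73 CPM or less. Among markers of leukocytes, fibroblasts and endothelium, CD68 was at 149 to 333 CPM and each of the other 10 at 1.09 CPM or less, with CD3E, DCN and CDH5 among those at 0 counts.

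No gene passed edgeR's quasi-likelihood test after Benjamini-Hochberg adjustment over all 13816 genes, in either direction (0% and 0%), members included. At an unadjusted p under 0.05, 12 of the 38 members tested were higher with YW-LF (31.6%, where 11.5% of all genes were) and 1 was lower (2.63%, where 9.01% were). DESeq2, after adjustment over its own 14154 genes, called 9 members higher (background 5.94%) and 1 lower (background 4.4%). Both YW-LF libraries stood above both DMSO libraries in 19 members, 50.0% of those tested against 28% of all genes, and below them in 5, 13.2% against 27.8%. The groups overlapped in the other 14, 36.8% against 44.2%. Because the members were chosen with results of these data known, none of these shares is independent evidence of a direction. The count of 12 at an unadjusted p under 0.05 was 6 (15.8%) with DMSO replicate 1 left out, where 4.5% of all genes were higher, and 4 (10.5%) with DMSO replicate 2 left out, where 4.32% were.

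**Figure D2:**
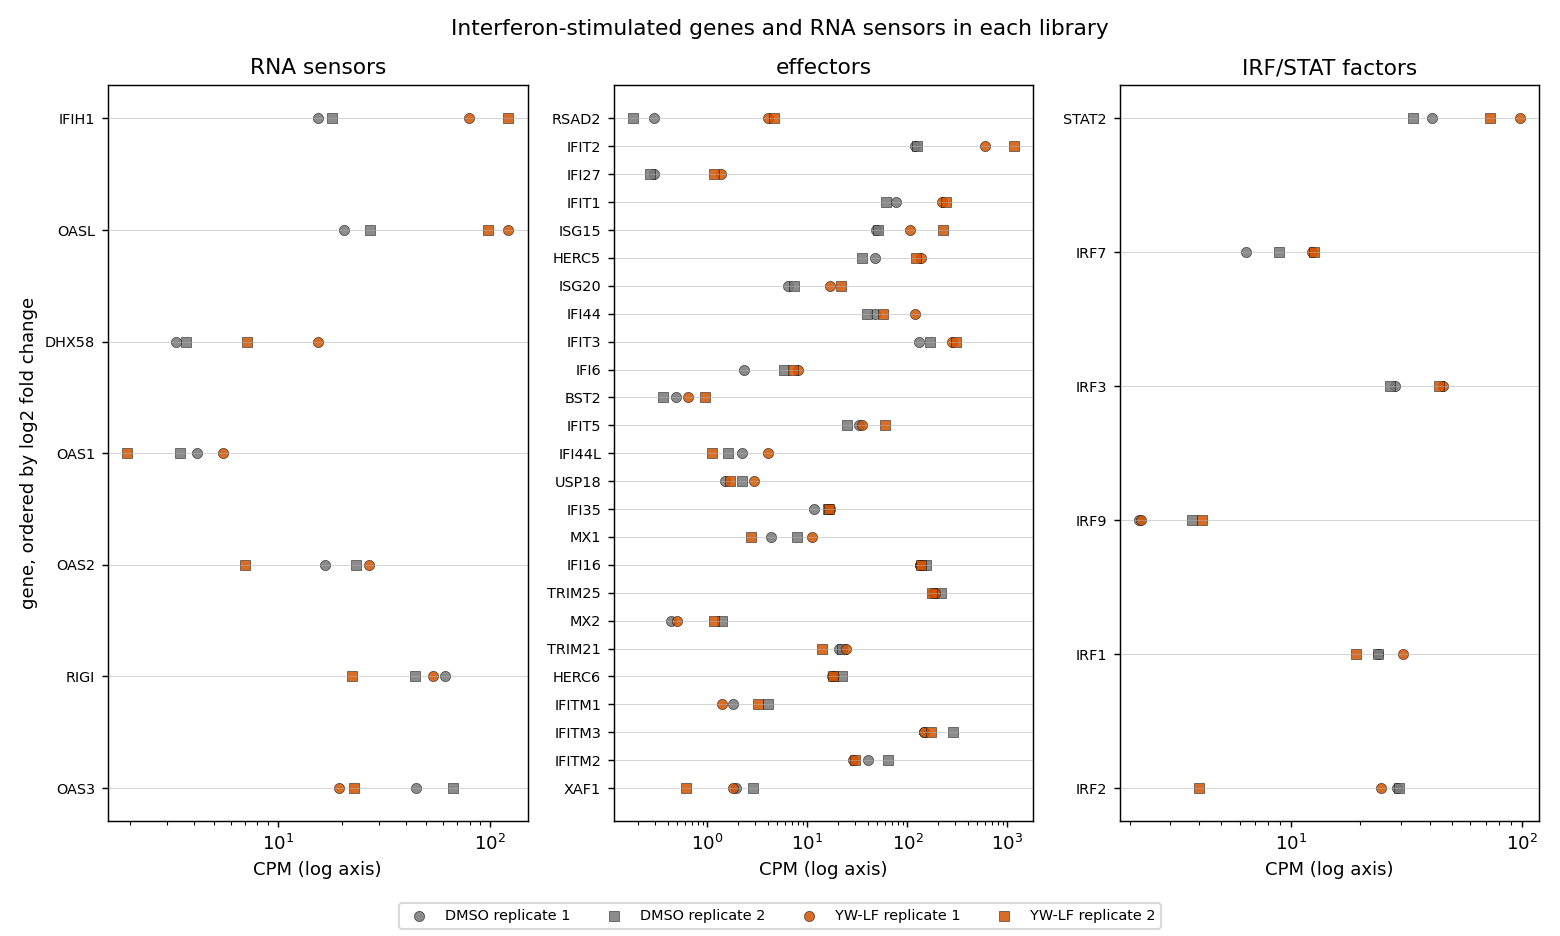
CPM on a log axis (x) of each gene tested (y) in each of the 4 libraries; circles are replicate 1 and squares replicate 2, grey is DMSO and orange YW-LF. The orange symbols lie right of the grey ones from RSAD2 down to IFIT5 in the effectors, and for IFIH1, OASL and DHX58 in the sensors.

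The RNA sensors split. Of the 3 RIG-I-like receptors, IFIH1 and DHX58 were high in both treated libraries and RIGI was not, and of the OAS family OASL was high and OAS3 low. IFIH1, which encodes MDA5 and recognises long double-stranded RNA (ENSG00000115267, chromosome 2, 162267079 to 162318703, GRCh38), was at 15.4 and 17.9 CPM with DMSO and 79.4 and 122 CPM with YW-LF. The groups did not overlap, and the gene was 6.04-fold higher (2.59 on the log2 scale, SE 0.40, adjusted p = 0.121 by edgeR and 1.2e-05 by DESeq2). DHX58 (LGP2, a helper of MDA5 that lacks signalling domains of its own; chromosome 17, 42101404 to 42112733) was at 3.31 and 3.68 CPM in DMSO and at 15.5 and 7.15 CPM in YW-LF. It was 3.24-fold higher (SE of log2 0.57, adjusted p = 0.185 by edgeR and 0.047 by DESeq2), and YW-LF replicate 1 held 2.16 times the level of YW-LF replicate 2; leaving out replicate 1 gave 1.03 on the log2 scale. RIGI (chromosome 9, 32455705 to 32526324), the sensor of RNA with a 5' triphosphate, was at 61.5 and 44.1 CPM in DMSO and 53.6 and 22.4 CPM in YW-LF. The groups overlapped, with replicate 1 inside the DMSO range and replicate 2 below it (-0.47 on the log2 scale, SE 0.50, edgeR adjusted p = 0.618).

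The OAS family makes or accompanies 2'-5' oligoadenylate, which activates RNase L. OASL, a member without synthetase activity that instead enhances RIG-I signalling (chromosome 12, 121019111 to 121039242), was at 20.5 and 27.2 CPM in DMSO and 121 and 97.6 CPM in YW-LF, 4.59-fold higher (SE of log2 0.38, adjusted p = 0.121 by edgeR and 1.8e-04 by DESeq2). OAS3, the synthetase most responsive to long double-stranded RNA (chromosome 12, 112938352 to 112973249), went the other way. It was at 44.8 and 66.8 CPM in DMSO and 19.5 and 22.8 CPM in YW-LF, 2.64-fold lower (-1.40 on the log2 scale, SE 0.39, adjusted p = 0.141 by edgeR and 0.043 by DESeq2), and was the 1 member lower at an unadjusted p under 0.05. Its neighbours on chromosome 12, the synthetases OAS1 and OAS2, lay high in one treated library and low in the other. OAS1 was at 4.14 and 3.44 CPM in DMSO, 5.53 in the first YW-LF library and 1.94 in the second (-0.02 on the log2 scale, SE 0.69). OAS2 was at 16.7 and 23.2 CPM in DMSO, 27.0 in the first YW-LF library and 7.02 in the second (-0.23 on the log2 scale, SE 0.65). Both straddled the DMSO range, and the sign of each turned with the scaling. OAS1, OAS2 and OAS3 lie over an antisense gene, AC004551.1, in GENCODE 29.

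Among the effectors, all 4 measured genes of the IFIT family stood above DMSO in both treated libraries. IFIT proteins bind foreign RNA ends and block its translation. IFIT2 (chromosome 10, 89283694 to 89309276) was at 119 and 124 CPM in DMSO and 592 and 1171 CPM in YW-LF, 7.25-fold higher (2.86 on the log2 scale, SE 0.54, adjusted p = 0.121 by edgeR and 2.4e-06 by DESeq2), or 2.27 with YW-LF replicate 2 left out. IFIT1 (chromosome 10, 89392546 to 89406486) was at 75.95 and 61.1 CPM in DMSO and 223 and 246 CPM in YW-LF, 3.42-fold higher (SE of log2 0.38, adjusted p = 0.121 by edgeR and 0.0029 by DESeq2). IFIT3, which stabilises IFIT1 (chromosome 10, 89327894 to 89340971), was 1.95-fold higher, at 130 and 168 CPM in DMSO and 276 and 305 CPM in YW-LF (adjusted p = 0.236 by edgeR and 0.168 by DESeq2). IFIT5 was at 32.6 and 24.9 CPM in DMSO and 35.2 and 59.5 CPM in YW-LF (0.72 on the log2 scale, SE 0.41). The 4 fold changes thus ran from 1.65-fold to 7.25-fold. In the GENCODE 29 annotation IFIT1, IFIT2 and IFIT3 lie within the span of LIPA on the other strand; whether the counting used strand is not known here.

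ISG15 and its ligase HERC5 were both high in the treated libraries, and the protease USP18 overlapped between groups. ISG15, a ubiquitin-like protein joined to other proteins during the antiviral response (chromosome 1, 1001138 to 1014540), was at 48.6 and 50.3 CPM in DMSO and 105 and 227 CPM in YW-LF, 3.36-fold higher (SE of log2 0.47, adjusted p = 0.139 by edgeR and 0.013 by DESeq2). With YW-LF replicate 2 left out it stood at 1.07 on the log2 scale. HERC5, the main ligase for ISG15 in human cells (chromosome 4, 88457117 to 88506163), was at 47.5 and 34.8 CPM in DMSO and 138 and 122 CPM in YW-LF, 3.16-fold higher (SE of log2 0.37, adjusted p = 0.121 by edgeR and 0.0077 by DESeq2). Its neighbour HERC6 was at 18.5 and 22.4 CPM in DMSO and 17.5 and 18.0 CPM in YW-LF, just below and with a gap smaller than the spread of DMSO (-0.20 on the log2 scale, SE 0.37). USP18, the protease that removes ISG15 and dampens the interferon receptor, was at 1.496 and 2.21 CPM in DMSO and 2.91 and 1.68 CPM in YW-LF, and the groups overlapped.

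RSAD2 had the highest fold change of the members, from a very low level. RSAD2 encodes viperin, which makes a chain-terminating nucleotide (chromosome 2, 6865806 to 6898239). It had 11 and 6 counts in DMSO and 201 and 143 counts in YW-LF, which is 0.294 and 0.179 CPM against 3.999 and 4.63 CPM (17.9-fold higher, log2 fold change 4.16, SE 0.72, adjusted p = 0.121 by edgeR and 2.5e-05 by DESeq2). Counting error alone is large at 6 counts. CMPK2, which overlaps RSAD2 by 830 bases on the opposite strand, had 0 counts in each library, and a count of 0 allows up to 3 counts, or 0.0597 to 0.0971 CPM. ISG20, an exonuclease of RNA (chromosome 15, 88636153 to 88656483), was at 6.44 and 7.29 CPM in DMSO and 16.8 and 21.4 CPM in YW-LF, 2.79-fold higher (SE of log2 0.42, adjusted p = 0.146 by edgeR and 0.041 by DESeq2). IFI27 was 4.44-fold higher but from 11 and 9 counts, at 0.294 and 0.269 CPM in DMSO and 1.35 and 1.17 CPM in YW-LF (SE of log2 0.76, edgeR adjusted p = 0.197).

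Of the remaining effectors, some stood above DMSO in both treated libraries and others in 1 only. IFI44 was at 47.0 and 39.6 CPM in DMSO, 120 in the first YW-LF library and 56.7 in the second, above in both (1.03 on the log2 scale, SE 0.45). IFI6, IFI35 and BST2 also stood above DMSO in both treated libraries, with log2 fold changes of 0.90, 0.27 and 0.90 and edgeR adjusted p of 0.438 to 0.734, and the sign of IFI35 turned with a length and GC correction. MX1, a GTPase that traps viral ribonucleoproteins, was at 4.35 and 7.89 CPM in DMSO, 11.02 in the first YW-LF library and 2.72 in the second. IFI44L had the same pattern, at 2.19 and 1.61 CPM in DMSO against 4.04 and 1.10 CPM. MX2, with 16 to 47 counts a library, overlapped between the groups.

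The IFITM family, membrane proteins that hinder virus entry, gave a negative fold change in all 3 genes. IFITM2 was below DMSO in both treated libraries (40.03 and 63.5 CPM against 28.5 and 29.6 CPM, log2 fold change -0.83, SE 0.39, edgeR adjusted p = 0.277). IFITM3 was at 147 and 282 CPM in DMSO against 146 and 170.3 CPM. IFITM1 stood at 1.82 and 4.005 CPM in DMSO against 1.39 and 3.17 CPM. In both genes YW-LF replicate 1 lay below DMSO and YW-LF replicate 2 inside its range. The signs of IFITM1 and IFITM3 turned in fits that left out a library. IFITM1 and IFITM2 overlap over 1767 bases on the same strand in GENCODE 29 and the family's sequences are alike, so the split of reads among them is uncertain. XAF1, a proapoptotic protein, was at 1.92 and 2.87 CPM in DMSO and 1.81 and 0.615 CPM in YW-LF. The ubiquitin ligases TRIM21 and TRIM25 and the DNA sensor IFI16 had log2 fold changes between -0.16 and -0.10.

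Among the transcription factors, STAT2, IRF3 and IRF7 stood above DMSO in both treated libraries. STAT2, the interferon-specific STAT (chromosome 12, 56341597 to 56360155), was at 41.0 and 33.7 CPM in DMSO and 98.6 and 72.9 CPM in YW-LF, 2.30-fold higher (SE of log2 0.37, adjusted p = 0.162 by edgeR and 0.082 by DESeq2). IRF3, the factor downstream of the RNA sensors, was at 28.2 and 26.9 CPM in DMSO and 45.6 and 43.7 CPM in YW-LF (1.62-fold higher, SE of log2 0.34, edgeR adjusted p = 0.295). IRF7, which amplifies interferon production, was at 6.41 and 8.91 CPM against 12.3 and 12.7 CPM (1.63-fold higher, SE of log2 0.44, edgeR adjusted p = 0.400). In these 3 factors the groups did not overlap. IRF3 shares 734 bases with BCL2L12 on the opposite strand.

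The other 3 factors did not share that pattern. IRF9, the DNA-binding partner of STAT2, was at 2.19 and 3.74 CPM in DMSO and 2.25 and 4.11 CPM in YW-LF. IRF1, an activator induced by interferon gamma, was at 24.0 and 23.9 CPM in DMSO, 30.5 in the first YW-LF library and 19.1 in the second. IRF2, its antagonist, was at 28.7 and 29.5 CPM in DMSO, 24.7 in the first YW-LF library and 3.98 in the second, a gap of 6.20-fold between the treated libraries (-1.02 on the log2 scale, SE 0.78, edgeR adjusted p = 0.489). Leaving out YW-LF replicate 1 gave -2.87 on the log2 scale, and leaving out YW-LF replicate 2 gave -0.25. IRF9 and IRF1 lie over other annotated genes in GENCODE 29 (on the same strand for IRF9, the opposite for IRF1), so their counts are less certain.

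**Figure D3:**
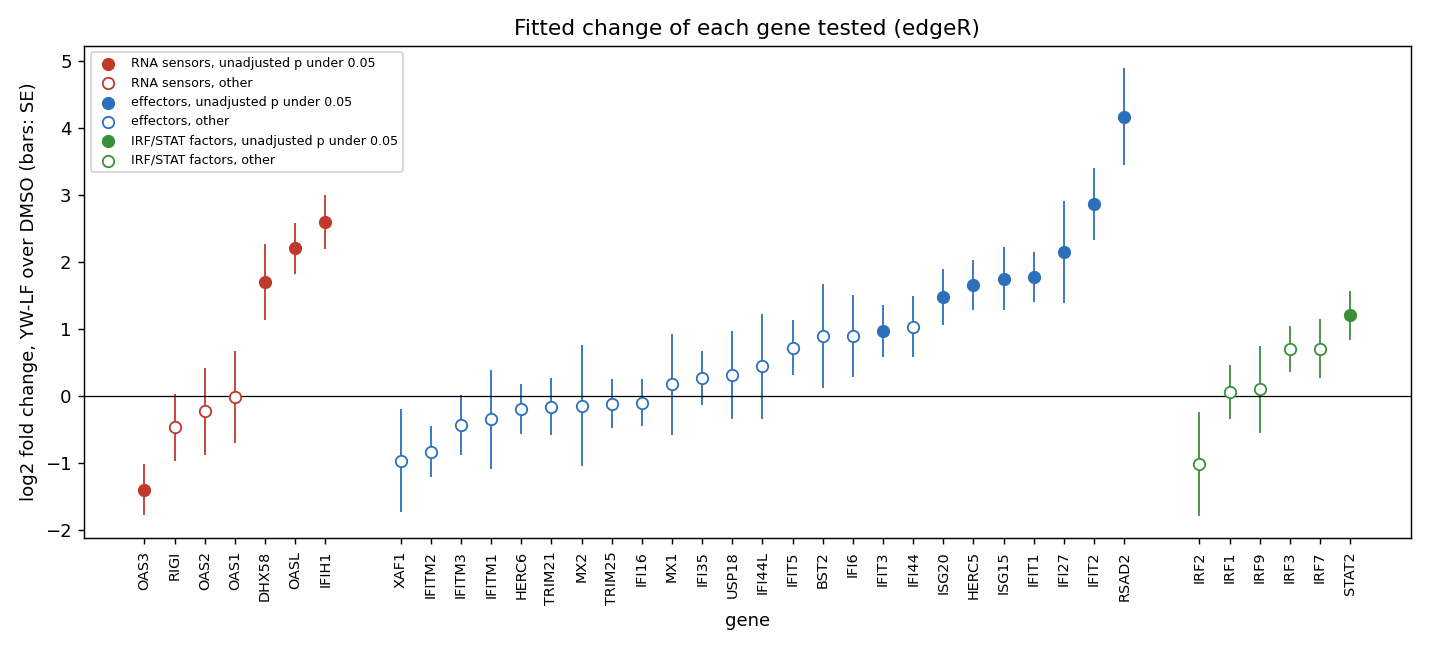
Log2 fold change of YW-LF over DMSO from edgeR (y axis) for each gene tested (x axis), by class; bars are the standard error and filled points have an unadjusted p under 0.05. The filled points are OAS3 at -1.40 and 12 genes above 0, from IFIT3 at 0.97 to RSAD2 at 4.16.

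Set beside each other, the 3 classes differed in their medians and ranges. The median log2 fold change was 0.44 for the 25 effectors tested (range -0.97 to 4.16), 0.40 for the 6 factors (range -1.02 to 1.20) and -0.02 for the 7 RNA sensors (range -1.40 to 2.59), against 0.06 over all genes tested. Both treated libraries stood above both DMSO libraries in 13 effectors (52.0%), 3 factors (50.0%) and 3 sensors (42.9%), where 28% of all genes did. At an unadjusted p under 0.05 there were 8 effectors, 1 factor and 3 sensors higher, and 1 sensor lower, where 11.5% and 9.01% of all genes were. The sensor median rests on which genes are counted as sensors: with the 4 OAS genes among the effectors it was 1.70 over the RIG-I-like receptors alone, and the effector median was 0.31. Over all 7 RNA sensors the median was -0.97 with YW-LF replicate 1 left out and 0.53 with YW-LF replicate 2 left out. The difference between classes was not tested.

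The treated libraries were also set side by side. Some counts of members that differed between them were near the shares of all genes, and others were not. Measured on log2 (CPM + 0.5) against the DMSO mean, the sensors had a median of 0.50 in the first and -0.81 in the second, the effectors 0.55 and 0.33, and the factors 0.51 and 0.55. YW-LF replicate 1 stood above both DMSO libraries in 26 of 38 members (68.4%, where 44.0% of all genes did) and YW-LF replicate 2 in 20 (52.6%, where 43.3% did). Replicate 1 was above and replicate 2 below both DMSO libraries in 6 members (15.8%), which are OAS1, OAS2, MX1, IFI44L, TRIM21 and IRF1 (background 11.8% of genes), and the reverse held in 0 (background 10.2%). In 9 members (23.7%) replicate 1 was at least 2-fold above replicate 2, as in 20.6% of all genes. In 3 members (7.89%) it was at least 2-fold below, as in 16.8% of all genes. IFIH1, OASL, IFIT1, IFIT2, ISG15, HERC5, ISG20, RSAD2 and IFI27 were at least 1.08 above the DMSO mean in both libraries on this scale. That limit is the lowest of their values, the one of ISG15 in YW-LF replicate 1, and no share of all genes is given for it. YW-LF replicate 1 was the higher of the treated libraries in 20 of 38 members (52.6%), where it was in 50.5% of all genes.

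**Figure D4:**
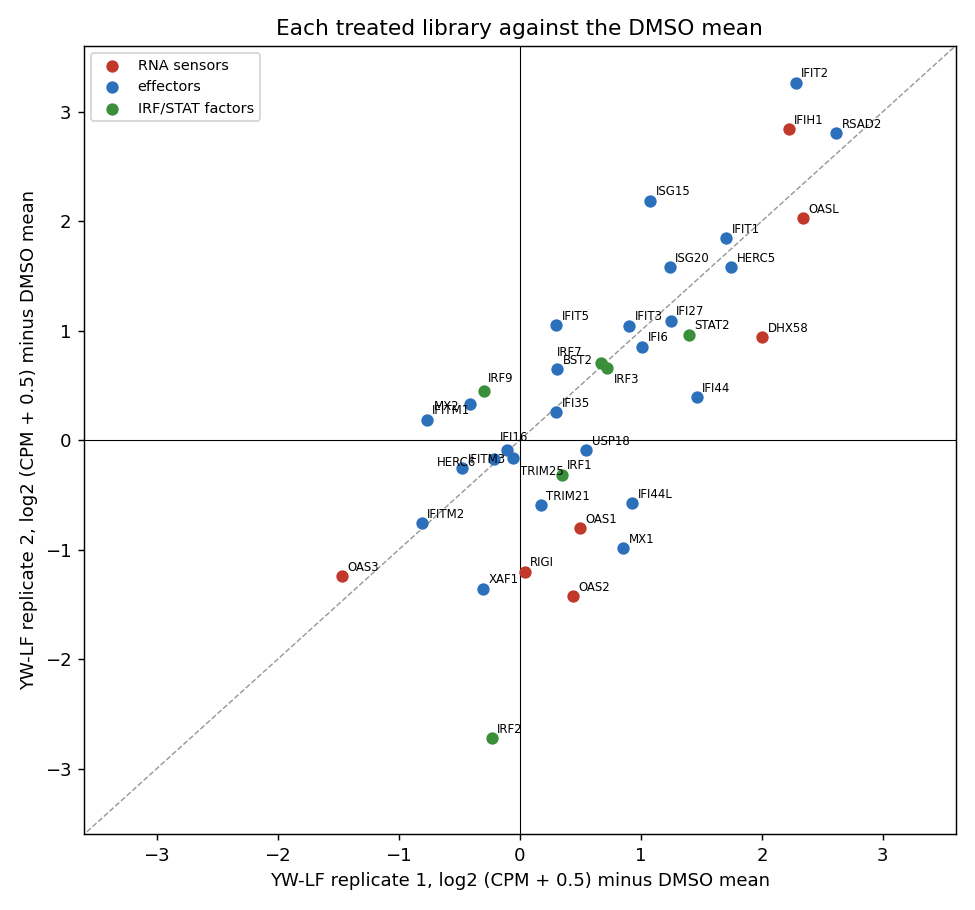
Log2 (CPM + 0.5) minus the DMSO mean for each gene in YW-LF replicate 1 (x axis) and YW-LF replicate 2 (y axis); the dashed line marks equal values and colours are the classes. IFIT2, IFIH1, RSAD2 and OASL lie at the upper right, while OAS1, OAS2, MX1, IFI44L, TRIM21 and IRF1 lie right of 0 and below it.

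Interferons themselves were almost absent from the counts. Of 21 interferon genes, 18 had 0 counts in all 4 libraries, among them IFNB1, IFNG and each type I gene. The 3 exceptions were the type III (lambda) genes, which signal at epithelial surfaces. IFNL1 had 0 counts in both DMSO libraries and 8 and 27 counts in YW-LF replicates 1 and 2. With DMSO set at the 3 counts that 0 allows over the group, it was at least 10.2-fold higher for the YW-LF counts as measured. The bound leaves out the counting error and the spread of those YW-LF counts. With only the first YW-LF library that bound was 3.76-fold, and with only the second 20.6-fold. IFNL2 had 2 counts in the first YW-LF library alone and IFNL3 had 6 in the second alone. IFNL1, IFNL2 and IFNL3 are related in sequence, IFNL2 and IFNL3 most closely, so reads may be shared, and none passed the filter for the test.

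Receptors and signalling genes showed no common direction. Of 14 tested, 4 stood above and 4 below DMSO in both treated libraries, which is near the shares of all genes (28% and 27.8%). At an unadjusted p under 0.05, 0 were higher and 2 lower (all genes 11.5% and 9.01%), and the median log2 fold change was 0.17. SOCS3, a feedback inhibitor of JAK kinases, was at 56.5 and 63.1 CPM in DMSO and 11.7 and 3.30 CPM in YW-LF, 7.92-fold lower (-2.99 on the log2 scale, SE 0.64, adjusted p = 0.121 by edgeR and 5.5e-05 by DESeq2). It stood at -4.18 on the log2 scale with YW-LF replicate 1 left out and at -2.36 with YW-LF replicate 2 left out. The phosphatase PTPN2, which acts on JAK1, was 2.21-fold lower (28.9 and 26.7 CPM against 14.3 and 10.9 CPM, edgeR adjusted p = 0.185). IFNLR1, the receptor chain for interferon lambda, was at 4.73 and 5.65 CPM in DMSO and 2.25 and 0.583 CPM in YW-LF (edgeR adjusted p = 0.246).

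Of 14 tested adaptors and kinases between the sensors and the factors, 4 stood above and 3 below DMSO in both treated libraries (28.6% and 21.4%, near the 28% and 27.8% of all genes). At an unadjusted p under 0.05, 1 was higher and 1 lower (7.14% each, all genes 11.5% and 9.01%), and the median log2 fold change was 0.29. TBK1, the kinase of IRF3, was at 36.8 and 26.9 CPM in DMSO and 45.8 and 87.4 CPM in YW-LF (2.09-fold higher, edgeR adjusted p = 0.244). Its relative IKBKE went the other way, at 21.2 and 22.4 CPM against 9.33 and 4.40 CPM (3.16-fold lower, adjusted p = 0.157 by edgeR and 0.031 by DESeq2), and stood at -2.31 on the log2 scale with YW-LF replicate 1 left out. TANK, a scaffold of both kinases, was at 12.7 and 12.8 CPM against 19.6 and 21.3 CPM. The adaptor MAVS, outside the naming rule and chosen after its values were seen, was at 167 and 201 CPM in DMSO, 322 in the first YW-LF library and 76.4 in the second.

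Other proteins that bind double-stranded RNA stood below DMSO in both treated libraries in 4 of 8 cases and above in 2, where 27.8% and 28% of all genes did. At an unadjusted p under 0.05, 1 was higher and 1 lower (12.5% each, all genes 11.5% and 9.01%), and the median log2 fold change was -0.64. ZC3HAV1, the zinc finger antiviral protein, was at 104 and 137 CPM in DMSO, 174 in the first YW-LF library and 543 in the second (2.98-fold higher, edgeR adjusted p = 0.220). Leaving out YW-LF replicate 1 gave 2.17 on the log2 scale, and leaving out YW-LF replicate 2 gave 0.52. EIF2AK2, the kinase PKR, was at 136 and 156 CPM in DMSO and 102 and 52.7 CPM in YW-LF (edgeR adjusted p = 0.291). STAU1, which binds RNA hairpins, was 2.37-fold lower, at 312 and 331 CPM against 190.5 and 81.2 CPM (edgeR adjusted p = 0.240).

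A second set of interferon-stimulated genes stood below DMSO more often than above it. Of 39 such genes, all tested, 7 stood above DMSO in both treated libraries (17.9%) and 17 below (43.6%), where the members gave 19 and 5 of 38 and all genes 28% and 27.8%. At an unadjusted p under 0.05, 3 were higher and 7 lower (7.69% and 17.9%, all genes 11.5% and 9.01%), and the median log2 fold change was -0.15. CXCL10 had the highest value of the set, so setting it at its lower bound could not move this median. DESeq2, after adjustment, called 2 genes of this set higher and 1 lower (5.13% and 2.56%, all genes 5.94% and 4.4%). The chemokine CXCL11 was 9.77-fold higher (4 and 16 counts in DMSO, 98 and 117 in YW-LF, adjusted p = 0.151 by edgeR and 0.011 by DESeq2). Its log2 value was 2.58 with DMSO replicate 1 left out and 4.69 with DMSO replicate 2 left out. CXCL10, named after its values were seen, had 0 counts in both DMSO libraries and 12 and 16 in YW-LF. Against a floor of 3 counts over the DMSO group it was at least 8.15-fold higher (5.64-fold with only the first YW-LF library and 12.2-fold with only the second). Here too the bound takes the YW-LF counts as measured, without their error. PSMB9, an immunoproteasome subunit, was 2.77-fold higher, at 4.78 and 6.04 CPM against 16.2 and 13.9 CPM (edgeR adjusted p = 0.157). GBP1, an interferon-induced GTPase, was 2.47-fold lower, at 57.2 and 54.8 CPM in DMSO and 28.2 and 17.1 CPM in YW-LF (edgeR adjusted p = 0.160).

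In this second set 17 genes of YW-LF replicate 1 exceeded both DMSO values and 18 lay under both (43.6% and 46.2%), near the 44.0% and 41.9% of all genes. In YW-LF replicate 2 these numbers were 8 and 27 (20.5% and 69.2%, all genes 43.3% and 45.6%). Among 8 tested further IRF and STAT genes, 3 stood above and 2 below DMSO in both treated libraries (37.5% and 25.0%, all genes 28% and 27.8%). STAT5A was 2.70-fold lower, at 20.5 and 30.2 CPM in DMSO against 11.7 and 7.02 CPM (edgeR adjusted p = 0.173), the 1 gene of these at an unadjusted p under 0.05. STAT3 was 1.72-fold higher, at 156 and 140.3 CPM against 206 and 304 CPM (edgeR adjusted p = 0.317). IRF5 was 1.94-fold higher, at 1.55 and 1.82 CPM against 3.90 and 2.65 CPM (edgeR adjusted p = 0.411).

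**Figure D5:**
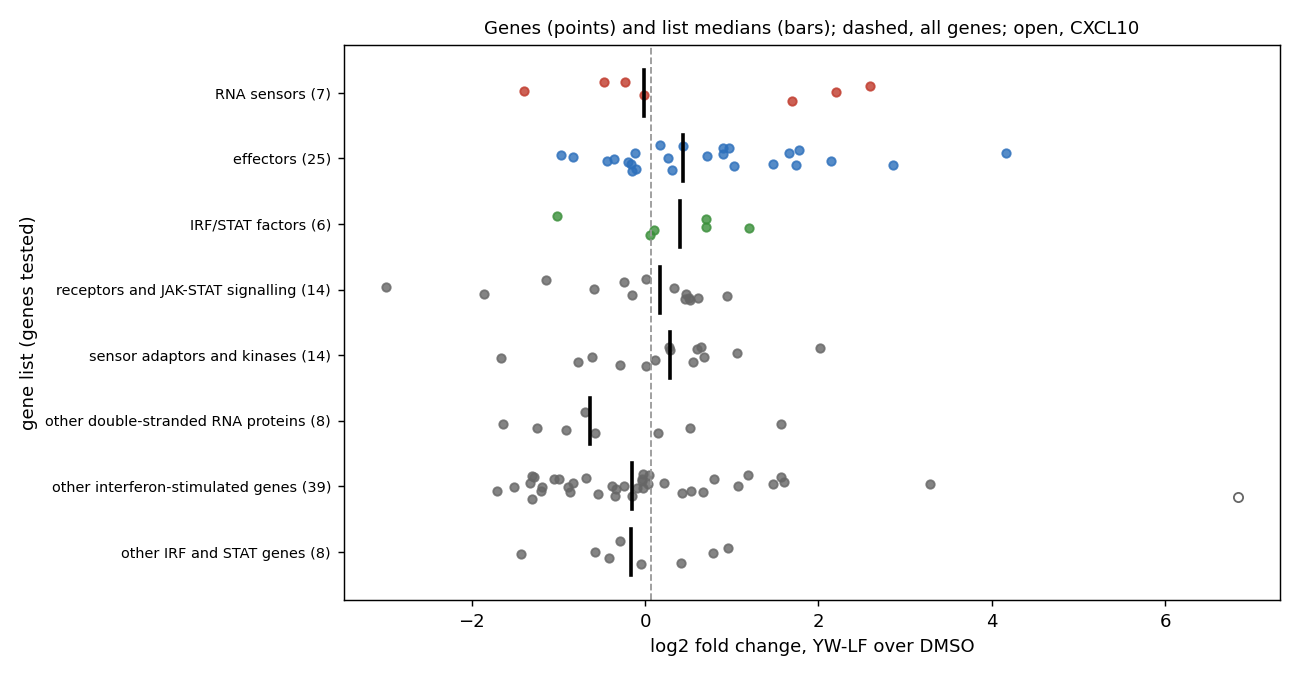
Log2 fold change of YW-LF over DMSO (x axis) for every gene tested of each list (y axis, number tested in brackets), with the list median as a bar and the median of all genes as a dashed line; the open point, CXCL10, had no DMSO counts, so its fitted value is no measure of size. The effectors have a median of 0.44 and the second set of interferon-stimulated genes one of -0.15.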

How the data were processed

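RNA sequencing counts were analysed for 2 DMSO and 2 YW-LF libraries, grouped by the labels. The authors deposited unnormalized counts: the values are whole numbers with unequal totals. Aligner and counter: not given in the sources used here. Mouse builds (GRCm38, mm10) appear in the submitters' processing notes, although 20263 of the table's identifiers are human and 0 are mouse. Symbols matched 20148 identifiers; coordinates come from GENCODE 29 (GRCh38), matched by identifier. A second deposited count table held the same DMSO values (40526 of 40526) and 2 columns that match no label and were not used.

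The main test was edgeR 4.0.16 (R 4.3.3): filterByExpr, TMM, quasi-likelihood F-test without covariates, Benjamini-Hochberg adjustment over 13816 genes, threshold 0.05. The SE is the log2 fold change over the square root of F. Log2 ratios of single libraries used a pseudocount of 0.5 CPM. Alternatives were DESeq2 1.42.0, limma-voom (limma 3.58.1), 3 other scalings, removal of the 13 mitochondrial genes, 2 other filters, a length and GC correction (loess, span 0.5), a replicate block and leaving out each library. The test was first tested on simulated data. Members and gene lists were chosen with earlier results of these data known. Every library's values are given for members with an unadjusted p under 0.05, all sensors and all factors; from each other list, the 3 genes of lowest p with a mean of at least 1 CPM. Items withheld from the text are not reported here. With 2 against 2 libraries an exact permutation test cannot go below p = 0.333. The replicates of a group differed by more than sampling noise (chi-square over its degrees of freedom, 222 and 512). Counting limits cover counting error only.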

Additional observations from a re-analysis of the deposited data

How the results depend on the processing

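With 2 libraries a group, no member passed edgeR after adjustment, and the calls depended on the test and on single libraries. DESeq2 called 9 members higher and 1 lower. A total count of at least 1 as the filter gave 4 higher (IFIH1, IFIT2, OASL and RSAD2), and the replicate block gave 4 higher, the same genes, and 2 members lower at an unadjusted p under 0.05, as did the length and GC correction. No label links a replicate number to a batch, and same-numbered libraries did not deviate together (r = 0.037 across genes). Over all genes the block called 186 higher and 145 lower, the total-count filter 155 and 120, and the main test 0. Without DMSO replicate 1 or 2, 0 members passed after adjustment; without YW-LF replicate 1, 11 were higher and 5 lower (28.9% and 13.2%, all genes 21% and 20.7%), and without YW-LF replicate 2, 11 higher and 1 lower (28.9% and 2.63%, all genes 10.1% and 10.2%). In these fits the remaining pair alone sets the spread, and the lone library is assumed to vary like it. Over these 4 fits, members higher after adjustment ranged from 0 to 11 and lower from 0 to 5; at an unadjusted p, higher from 4 to 15 and lower from 0 to 7; above DMSO in both libraries from 19 to 26 and below from 7 to 14. The counts above and below DMSO compare fewer libraries in these fits. Apart from changes in scaling they could only stay or rise, so they do not measure robustness. No share of all genes is given beside these counts above and below DMSO. At an unadjusted p, the share of members higher exceeded that of all genes in each of the 4 fits. The share of members lower was under that of all genes in each. The highest count of lower members, 7, came from the fit without YW-LF replicate 1, where a larger share of all genes was lower. Across the 4 fits, class medians ranged from -0.97 to 0.53 (sensors), 0.35 to 0.65 (effectors) and 0.28 to 0.59 (factors). With library size only, 2 members stood below DMSO in both libraries, and the medians were 0.66 (effectors) and 0.50 (factors); with upper-quartile scaling the factor median was 0.36. With the OAS genes among the effectors the sensor median was 1.70. No scaling moved the median of all genes by more than 0.093. Some signs turned, and the cause was not tested. With single libraries left out, log2 fold changes that turned ranged as follows: RIGI -1.24 to 0.0104, OAS1 -0.97 to 0.53, OAS2 -1.51 to 0.42, IFITM1 -1.07 to 0.31, IFITM3 -0.82 to 0.0938, USP18 -0.14 to 0.64, TRIM21 -0.61 to 0.16, TRIM25 -0.23 to 4.03e-05, MX1 -1.17 to 0.84, MX2 -0.88 to 0.93, IFI44L -0.79 to 1.07, IRF1 -0.33 to 0.34, IRF9 -0.41 to 0.52. With upper-quartile scaling, the sign turned for OAS1 (0.00145). With library size only, the sign turned for OAS1 (0.19), OAS2 (0.0362), TRIM21 (0.00358). With the length and GC correction, the sign turned for TRIM25 (0.15), IFI35 (-0.0384), IRF9 (-0.0608). With the replicate block, the sign turned for MX1 (-0.0872).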
